A study of Mus musculus with 12 samples.

Results

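The genes described here are 5 kallikreins, Klk1, Klk1b5, Klk8, Klk10 and Klk15, and the 2 kinin receptors, Bdkrb1 and Bdkrb2, which together are 7 of the 55376 genes in the count table. They were chosen by name with the difference between the groups already known, so their differences are given as a description, with no p-value. RNA-Seq was performed on the proximal colon at an age of 12 weeks. There were 12 mice, 6 EPR cKO and 6 EPR fl/fl, and each gave 1 library. EPR is a long noncoding RNA of epithelial cells, listed in the table as Smim31. All 12 mice carried EPR alleles with loxP sites around the promoter and exon 1. The EPR fl/fl mice, labelled wt, carried no Cre and served as controls. The EPR cKO mice, labelled ko, also carried the CDX2P-NLS Cre transgene, in which sequences of the human CDX2 gene drive Cre in the epithelium of the distal gut. Per the methods, the frozen colon fragment was homogenized whole, so that it also holds muscle, vessels, nerves and immune cells. The protocol in the labels describes a fractionation of isolated crypts as well, without saying which libraries it concerns, and markers of smooth muscle were abundant in every library here. In such bulk RNA, fewer cells of a type and less RNA per cell cannot be told apart.

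Kallikreins are secreted serine proteases. Tissue kallikrein, the product of Klk1, cuts kininogens to release kinins, short peptides that act on the B1 and B2 receptors to dilate vessels, contract smooth muscle and change epithelial ion transport, until kininases cut them. In the colon, tissue kallikrein protein has been described in goblet cells. In the mouse, Klk1 has given rise to many near-identical copies, the Klk1b genes, which lie next to it in the kallikrein cluster.

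The copies matter for reading any Klk1 count, since a read from a stretch that is identical in both genes cannot by itself be assigned to either. The reads were paired, so that a mate outside the stretch can still place such a read. In the GRCm38/mm10 genome, Klk1 lies at chr7:44225360-44229618 on the plus strand with 5 exons, and Klk1b5 lies just before it, at chr7:44215945-44220703, also with 5 exons. Over the 783 bases of the Klk1 coding sequence, 745 were identical in Klk1b5 (95.1%). The longest identical run was 145 bases, at coding positions 346 to 490 in exon 3. It is shown because reads within it fit both genes, at chr7:44228667-44228811 in Klk1 and at chr7:44219749-44219893 in Klk1b5. Both are from GENCODE M21 transcripts, in which the exons of these genes equal those in the count table.
Klk1: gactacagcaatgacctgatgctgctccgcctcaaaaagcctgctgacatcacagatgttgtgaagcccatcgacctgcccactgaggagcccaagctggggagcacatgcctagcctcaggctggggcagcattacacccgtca
Klk1b5: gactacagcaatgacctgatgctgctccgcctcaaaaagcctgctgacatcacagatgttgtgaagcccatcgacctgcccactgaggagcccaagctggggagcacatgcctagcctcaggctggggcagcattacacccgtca

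The window where Klk1 and Klk1b5 differ most is in exon 5, close to the end of the coding sequence, and is shown because reads over it can be told apart. Capitals in Klk1 mark the 13 of 60 bases that differ from Klk1b5, and capitals in each copy mark the bases that differ from Klk1. The windows are on the plus strand at chr7:44229499-44229558 (Klk1), chr7:44220584-44220643 (Klk1b5), chr7:44211635-44211694 (Klk1b4), chr7:44202235-44202294 (Klk1b3) and chr7:44106464-44106523 (Klk1b21).
Klk1: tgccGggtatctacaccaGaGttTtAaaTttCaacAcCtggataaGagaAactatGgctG
Klk1b5: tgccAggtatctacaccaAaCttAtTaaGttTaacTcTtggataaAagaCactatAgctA
Klk1b4: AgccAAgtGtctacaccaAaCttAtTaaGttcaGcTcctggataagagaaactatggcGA
Klk1b3: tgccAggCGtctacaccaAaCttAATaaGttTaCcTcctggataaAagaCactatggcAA
Klk1b21: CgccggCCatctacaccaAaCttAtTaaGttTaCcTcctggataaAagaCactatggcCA
The number of differences from Klk1 in this window was 13 for Klk1b5, 13 for Klk1b4, 16 for Klk1b3 and 15 for Klk1b21.

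Over the whole transcript, 28.4% of all 50-base stretches of Klk1 also occurred in at least 1 of 13 other genes. The share was 18.8% with Klk1b5, 9.39% with Klk1b3 and 6.85% with Klk1b4. Seen from Klk1b5, 17.1% of its stretches occurred in another gene, and 12.7% in Klk1. Klk10, Bdkrb1 and Bdkrb2 shared no such stretch with any gene. Klk8 and Klk15 shared stretches only with a gene on the opposite strand, described with their counts. In coding sequence, Klk15, Klk10 and Klk8 are more distant relatives, with 70.1%, 66.2% and 65.2% of aligned bases identical to Klk1.

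The libraries held between 13093904 and 33211041 counts. EPR itself was measured at 39.5 ± 14.5 CPM in the controls and at 0.132 ± 0.152 CPM in EPR cKO. CPM is the read count relative to the size of the library, scaled by TMM, and is given as mean ± SD over 6 libraries. The log2 fold change was -8.09 ± 0.47 (SE, edgeR quasi-likelihood test, adjusted p = 1.62e-06), so that the libraries matched their labels. One library stood apart. In EPR cKO 1, the summed level of 10 smooth muscle markers was 10212 CPM, while the other EPR cKO libraries had 1236 to 3026 CPM and EPR fl/fl 3445 to 5869 CPM. Over all 15952 genes tested, 2.46% passed an adjusted p under 0.05, with 1.57% lower and 0.884% higher in EPR cKO. Without EPR cKO 1, 14.4% were lower and 7.44% higher. P-values measure the spread between these mice.

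Klk1 was among the most abundant transcripts of the control colon and was much lower in EPR cKO. In EPR fl/fl 1 to 6 it was measured at 531, 621, 696, 676, 533 and 460 CPM. In EPR cKO 1 to 6 it was at 74.4, 141, 119, 159, 188 and 124 CPM. The groups did not overlap, and the lowest control library was 2.44 times the highest EPR cKO library. The means were 586 ± 92.9 and 134 ± 38.6 CPM (SD, n = 6 each), a log2 fold change of -2.13 ± 0.19 (SE), or 4.36-fold lower in EPR cKO. The EPR cKO level was 22.9% of that in controls. The values behind these means were 7255 to 21970 reads per control library and 1352 to 6037 per EPR cKO library. Per kilobase of exon, Klk1 stood at 615 ± 97.4 RPKM in EPR fl/fl, the rank of 51 among the 15952 tested genes, and at 141 ± 40.5 RPKM and a rank of 385 in EPR cKO. The relative spread was wider in EPR cKO, with a coefficient of variation of 28.8% against 15.8%, and EPR cKO 1 was the lowest library.

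Of the 7 genes, Klk1 and Bdkrb2 reached 1 CPM in at least 4 libraries and entered the fit across all genes. Klk1 passed an adjusted p under 0.05 and also the thresholds of the study, and Bdkrb2 passed neither. Since the genes were chosen on this contrast, nothing is read from 1 of 2 beside the 2.46% of all tested genes that passed, or beside the 0.169% that were lower past the thresholds of the study. For separation of all 6 libraries of each group with EPR cKO lower, the share over all tested genes was 1.47%.

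**Figure D1:**
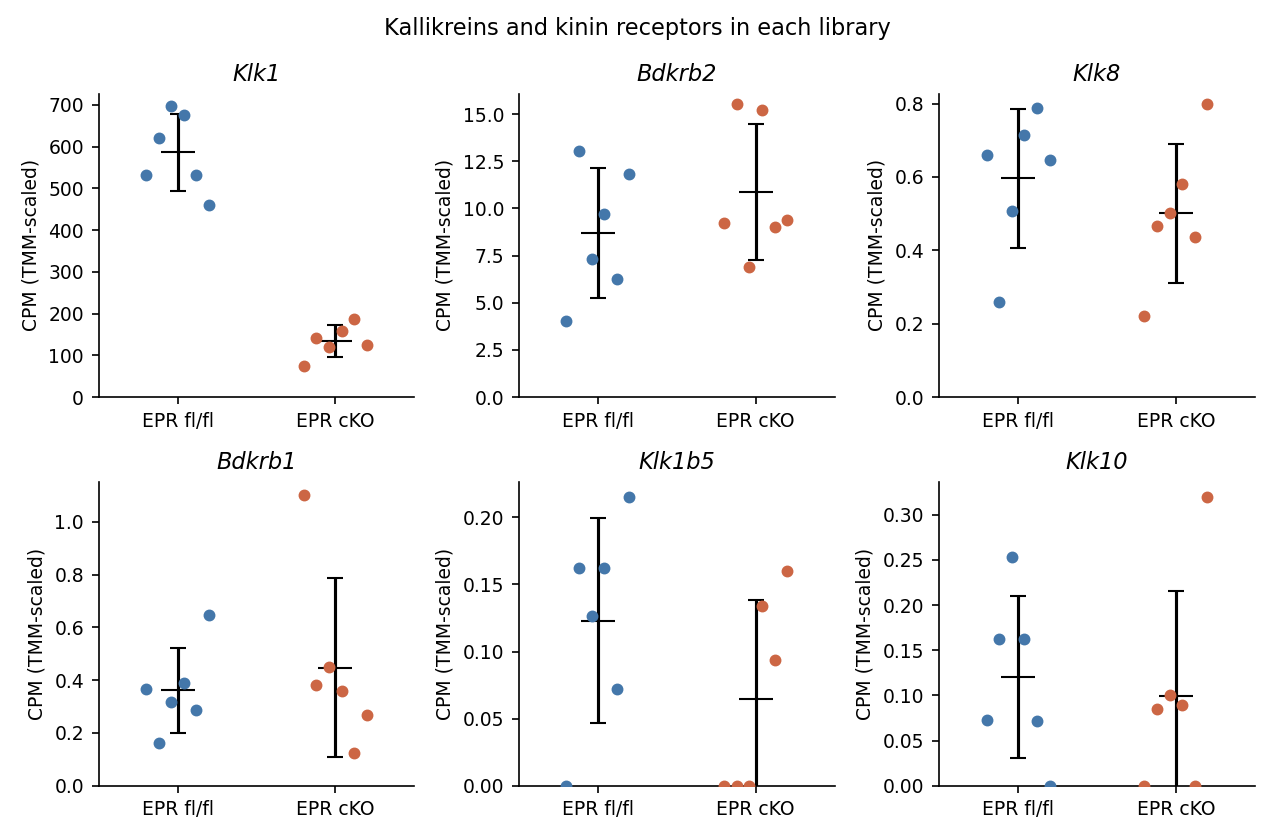
CPM (TMM-scaled) of 6 of the 7 genes in each library, with a point per mouse, EPR fl/fl in blue and EPR cKO in red, and the bars at the mean ± SD (n = 6). Klk1 separates the groups (460 to 696 against 74.4 to 188 CPM), while the groups overlap for the other 5 genes, and 4 of these lie near or below 1 CPM. Klk15 had no count and is not drawn.

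The level of Klk1b5, a glandular kallikrein, was close to 0 in both groups. Its counts were 0, 5, 4, 5, 1 and 4 in EPR fl/fl 1 to 6 and 0, 0, 0, 3, 3 and 3 in EPR cKO 1 to 6. The groups overlapped, at 0.123 ± 0.0767 and 0.0646 ± 0.0738 CPM. In a fit of every gene with any count, its log2 fold change was -0.96 ± 0.72 (SE), an estimate from 19 reads against 9.

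Read against Klk1, the reads on Klk1b5 were 0.0223% of the reads of both genes together in controls (Clopper-Pearson 95% interval 0.0134% to 0.0348%) and 0.0474% in EPR cKO (0.0217% to 0.0900%). These intervals cover counting error only, and they overlap. For Klk1b4, whose product is the alpha subunit of the 7S nerve growth factor complex, the values were 0.0399% (0.0276% to 0.0558%) and 0.226% (0.164% to 0.304%). Klk1b4 had 34 reads in the controls and 43 in EPR cKO, and was named after its values were seen because it was the only copy with a read in every library. All Klk1b genes and pseudogenes together had 101 reads in the controls and 76 in EPR cKO. As a share of the Klk1 count, that was 0.0827% to 0.175% in EPR fl/fl libraries and 0.296% to 0.557% in EPR cKO libraries, with no overlap. The reads on the copies were thus few in both groups, and their sum did not fall in proportion to Klk1. Single copies differed, with 13 and 3 reads for Klk1b11, 8 and 0 for Klk1b21, and 1 and 6 for Klk1b24. The share divides by Klk1, which was chosen with its lower level known, so that its separation is a description. Which of the reads on the copies came from Klk1 itself was not tested, since the treatment of reads with several alignments is not stated. Adding the Klk1b counts to Klk1 left the log2 fold change at -2.12, which differs little from -2.13 because Klk1 held nearly all the reads.

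**Figure D2:**
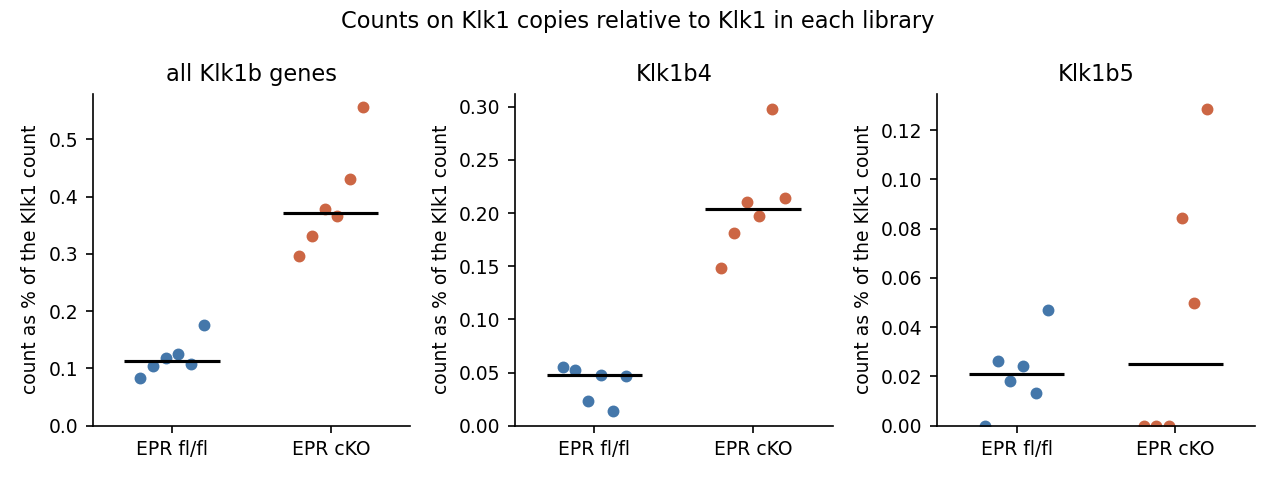
Reads on all Klk1b genes, on Klk1b4 and on Klk1b5 as a percent of the Klk1 count in each library, with a point per mouse and a line at the group median. The shares for all Klk1b genes lie between 0.0827% and 0.175% in EPR fl/fl and between 0.296% and 0.557% in EPR cKO, while Klk1b5 had no read in 4 of the 12 libraries.

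Klk8, known as neuropsin, Klk10 and Klk15 lie at lower coordinates than Klk1 and its copies. They are at chr7:43797577-43803822, chr7:43781035-43785410 and chr7:43933740-43939639, all on the plus strand. Klk8 had between 8 and 22 reads in the EPR fl/fl libraries and between 4 and 15 in the EPR cKO libraries. The groups overlapped, at 0.596 ± 0.189 and 0.501 ± 0.189 CPM. Its log2 fold change, fitted without the filter on low counts, was -0.24 ± 0.34 (SE). Klk10 had 0 to 8 reads per control library and 0 to 6 per EPR cKO library, or 0.121 ± 0.0899 and 0.0990 ± 0.117 CPM. Its log2 fold change was -0.54 ± 0.74 (SE), and the highest library of all was EPR cKO 6. Klk15 had 0 reads in all 12 libraries, and a count of 0 over each group allows a level of up to 0.0219 CPM.

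The counts of Klk8 and Klk15 carry a further doubt. Of the exon bases of Klk8, 27.9% (369 bases) overlap the antisense gene 2310002F09Rik, and of the 845 exon bases of Klk15, 414 overlap the antisense gene Gm44756. These neighbours were named after the overlap was found. Whether the counting used the strand is not stated, so that reads in the overlap could belong to either gene or could have been set aside.

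The kallikrein cluster of chromosome 7 spans 539 kb and holds 37 genes and pseudogenes of this family, 11 of them pseudogenes. Klk1 took 104111 of their reads, or 99.6%, and the other 36 had 376 reads together. In all 12 libraries, 12 of the 37 had no read, 5 of them genes that are not pseudogenes. Klk1, Klk8 and Klk1b4 were the 3 with a read in every library. Klk13 had 0 reads in the controls and 7 in EPR cKO, Klk1b21 had 8 and 0, Klk1b11 had 13 and 3, and Klk1b24 had 1 and 6, all named after their values were seen. None of the 21 kallikreins of the list of other kallikrein genes had enough reads to enter the test. Colon expression of the family was, at the depth of these libraries, almost wholly that of Klk1.

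**Figure D3:**
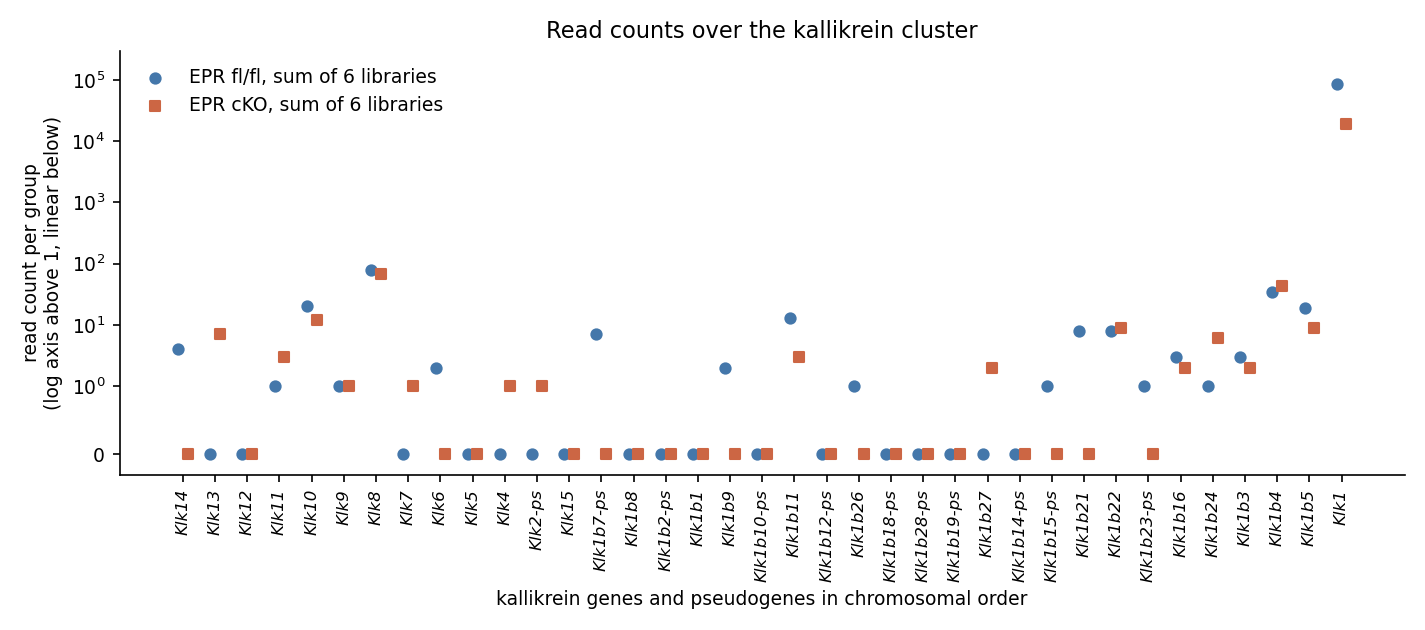
Reads per group (sum of 6 libraries, log axis above 1 and linear below) on the 37 kallikrein genes and pseudogenes in chromosomal order, EPR fl/fl as blue circles and EPR cKO as red squares. Klk1 stands at 85131 and 18980 reads, and no other member of the family exceeds 78 reads in a group.

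The first step after the protease is its substrate. Kininogen RNA was nearly absent from the tissue, with 1 read on Kng1 in the controls and 2 in EPR cKO, and with 42 and 10 reads on Kng2. The plasma pathway was as low, with 3 and 2 reads on Klkb1 (plasma prekallikrein) and 2 and 3 on F12 (factor XII, which activates it). These genes are mainly expressed in liver, and none entered the test. Of the 10 genes of the kinin formation list, 4 were tested. By edgeR, 0 passed an adjusted p under 0.05, beside 2.46% of all tested genes. An unadjusted p under 0.05 was seen for 1, and 0 passed by DESeq2 or limma-voom. The 4 were Pebp1 (69.8 against 77.7 CPM), Prcp (45.3 against 47.1 CPM), Serping1, the C1 inhibitor (51.3 against 34.8 CPM), and Serpina3c (7.86 against 2.78 CPM), which were named after their values were seen. Without EPR cKO 1, Serpina3c (log2 fold change -2.60, adjusted p = 0.00387) and Serping1 (-0.95, 0.0124) were lower by edgeR. In that fit, 14.4% of all tested genes were lower, as were all 10 smooth muscle markers.

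Of the receptors, Bdkrb2 encodes the B2 receptor, which binds intact kinins and is present in most tissues, and Bdkrb1 encodes the B1 receptor, which binds kinins without their last arginine and is known to be induced in inflamed tissue. They are neighbours on chromosome 12, at chr12:105563226-105595237 and chr12:105603085-105605428. Bdkrb2 was measured at 4.03, 13.03, 7.32, 9.69, 6.24 and 11.8 CPM in EPR fl/fl 1 to 6. In EPR cKO 1 to 6 it was at 9.25, 15.5, 6.92, 15.2, 9.01 and 9.37 CPM. The groups overlapped over most of their range. The means were 8.69 ± 3.44 and 10.9 ± 3.60 CPM, and the log2 fold change was 0.32 ± 0.28 (SE), about the size of its error. Bdkrb1 was measured at 0.361 ± 0.160 CPM in EPR fl/fl, with 4 to 12 reads a library, and at 0.447 ± 0.340 CPM in EPR cKO, with 4 to 20 reads. Its log2 fold change without the filter was 0.25 ± 0.46 (SE), and EPR cKO 1, at 1.10 CPM, was the highest of the 12 libraries. Per kilobase of exon in EPR fl/fl, the order of the 7 genes was Klk1 (615 RPKM), Bdkrb2 (2.29), Klk8 (0.451), Bdkrb1 (0.252), Klk1b5 (0.0885), Klk10 (0.0878) and Klk15 (0). Klk1 and Bdkrb2 lay above the next gene in the order in every library of the group. The libraries of Klk8 and Bdkrb1 overlapped, as did those of Bdkrb1 and Klk1b5, of Klk1b5 and Klk10, and of Klk10 and Klk15, so that these neighbours did not differ beyond their spread.

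Kininases end the signal, and here single genes differed in both directions. Of the 15 genes of the kinin breakdown list, 13 were tested, of which 3 were lower and 1 was higher in EPR cKO at an adjusted p under 0.05. The shares over all tested genes were 1.57% lower and 0.884% higher. Cpm, the membrane carboxypeptidase M, which removes the last arginine of kinins, was at 24.6 to 52.0 CPM in the controls and at 9.26 to 19.0 CPM in EPR cKO. The groups did not overlap, as for 1.47% of all tested genes with EPR cKO lower. The log2 fold change was -1.48 ± 0.21 (SE, edgeR adjusted p = 0.00234). Xpnpep2, an aminopeptidase P of the membrane that cuts bradykinin near its start, fell from 6.18 to 3.74 CPM (log2 fold change -0.72, edgeR adjusted p = 0.0244). Dpp4, a dipeptidyl peptidase of the brush border, fell from 38.2 to 27.2 CPM (-0.49, edgeR adjusted p = 0.0403). Thop1, the cytosolic thimet oligopeptidase, rose from 16.8 to 28.2 CPM (0.75, edgeR adjusted p = 0.0209). With each library left out in turn, Cpm stayed under 0.05 in 12 of 12 fits, Thop1 in 7, Xpnpep2 in 5 and Dpp4 in 3, with an adjusted p of at most 0.101 in any fit of these 4 genes. With the tissue composition score (log2 level of epithelium markers minus smooth muscle markers) as a covariate, Thop1 (edgeR adjusted p = 0.0948) and Xpnpep2 (0.0700) no longer passed.

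Ace and Mme, which encode kininases of vessels and epithelium, did not pass the test. Ace, for kininase II, was at 16.9 ± 1.45 CPM in the controls and 11.9 ± 3.96 CPM in EPR cKO (log2 fold change -0.50, edgeR adjusted p = 0.167). Mme, for neprilysin, was at 5.69 ± 2.92 and 2.57 ± 3.02 CPM (-1.15, edgeR adjusted p = 0.357). In EPR cKO, Ace and Mme were highest in EPR cKO 1, at 18.9 and 8.53 CPM. Without this library both were lower, with a log2 fold change of -0.69 (edgeR adjusted p = 0.00450) for Ace and -2.07 (0.0140) for Mme. In that fit, 14.4% of all tested genes were lower, as were all 10 smooth muscle markers. With all libraries and the composition score as a covariate, neither passed. Ace was then at -0.21 (edgeR adjusted p = 0.462) and Mme at -0.65 (0.595).

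Of the 24 genes of the kinin receptor signalling list, all 24 were tested and 0 passed by edgeR, beside 2.46% of all tested genes. An unadjusted p under 0.05 was seen for 5, limma-voom called 1 (Plcb4, lower) and DESeq2 called 2 (Plcb4, lower, and Gna11, higher). Plcb4 encodes a phospholipase C and Gna11 a G protein alpha subunit that activates this enzyme, and both were named after their values were seen. Nos3, the endothelial nitric oxide synthase that kinins activate, was at 2.78 ± 0.642 and 1.95 ± 1.61 CPM (log2 fold change -0.52, edgeR adjusted p = 0.507). It was highest of all in EPR cKO 1, at 5.12 CPM, and without that library was lower (-1.10, edgeR adjusted p = 0.0131). With all libraries and the composition score as a covariate, Nos3 was at -0.035 (edgeR adjusted p = 0.971). Ptgs2, the inducible cyclooxygenase, was at 5.06 ± 1.61 and 6.04 ± 1.45 CPM (0.25, edgeR adjusted p = 0.578). Without EPR cKO 1, 5 genes of this list were lower and 2 higher by edgeR, beside 14.4% lower and 7.44% higher among all genes.

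Kallikreins also act in protease cascades, so other trypsin-like proteases of epithelium, their inhibitors and the receptors they cut were counted. Of 11 tested protease genes, 2 were lower, beside 1.57% of all tested genes. Hgfac, the activator of hepatocyte growth factor, fell from 113 ± 23.9 to 40.6 ± 6.19 CPM without overlap (log2 fold change -1.47 ± 0.14, edgeR adjusted p = 0.000103). Such separation with EPR cKO lower was seen for 1.47% of all tested genes. Hpn, which encodes hepsin, fell from 1.80 to 0.582 CPM (-1.64 ± 0.35, edgeR adjusted p = 0.0254), a low level, with 268 and 77 reads. Of 9 tested inhibitor genes, 1 was lower and 2 were higher, beside 1.57% lower and 0.884% higher over all tested genes. Wfdc2, a small secreted WAP-domain protein, fell from 16.2 to 6.39 CPM (-1.34 ± 0.21, edgeR adjusted p = 0.00489). Spint1, the Kunitz inhibitor HAI-1, which blocks the Hgfac protease and matriptase, rose from 216 to 272 CPM (0.33, edgeR adjusted p = 0.0230), and Serpinb5, a serpin known as maspin, from 47.9 to 72.7 CPM (0.60, edgeR adjusted p = 0.0305). With each library left out in turn, Hgfac and Wfdc2 stayed under 0.05 in 12 of 12 fits, Hpn and Spint1 in 4 and Serpinb5 in 2. With the composition score as a covariate, Spint1 (log2 fold change 0.25, edgeR adjusted p = 0.0934), Serpinb5 (0.33, 0.107) and Hpn (-1.31, 0.0953) no longer passed, so that none of the 3 higher calls of all lists, Thop1 included, held beside it. With total counts only, Spint1 (edgeR adjusted p = 0.124) and Serpinb5 (0.0734) did not pass either. Of the protease-activated receptors, F2rl1 (82.3 against 92.7 CPM) and F2r (13.9 against 15.7 CPM) were tested and 0 passed by edgeR, DESeq2 or limma-voom, with 1 at an unadjusted p under 0.05. The share that passed by edgeR over all tested genes was 2.46%.

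Over the 100 genes of these lists, 63 were tested, of which 6 were lower and 3 higher, with a median log2 fold change of -0.08. Over all tested genes, 1.57% were lower and 0.884% higher, with a median of 0.02. Leaving out EPR cKO 1 gave 19 lower and 10 higher genes in the lists, beside 14.4% lower and 7.44% higher among all genes. Leaving out any other library gave between 3 and 7 lower and at most 3 higher in the lists. By edgeR with all libraries, these 9 calls lay among the breakdown, protease and inhibitor lists.

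**Figure D4:**
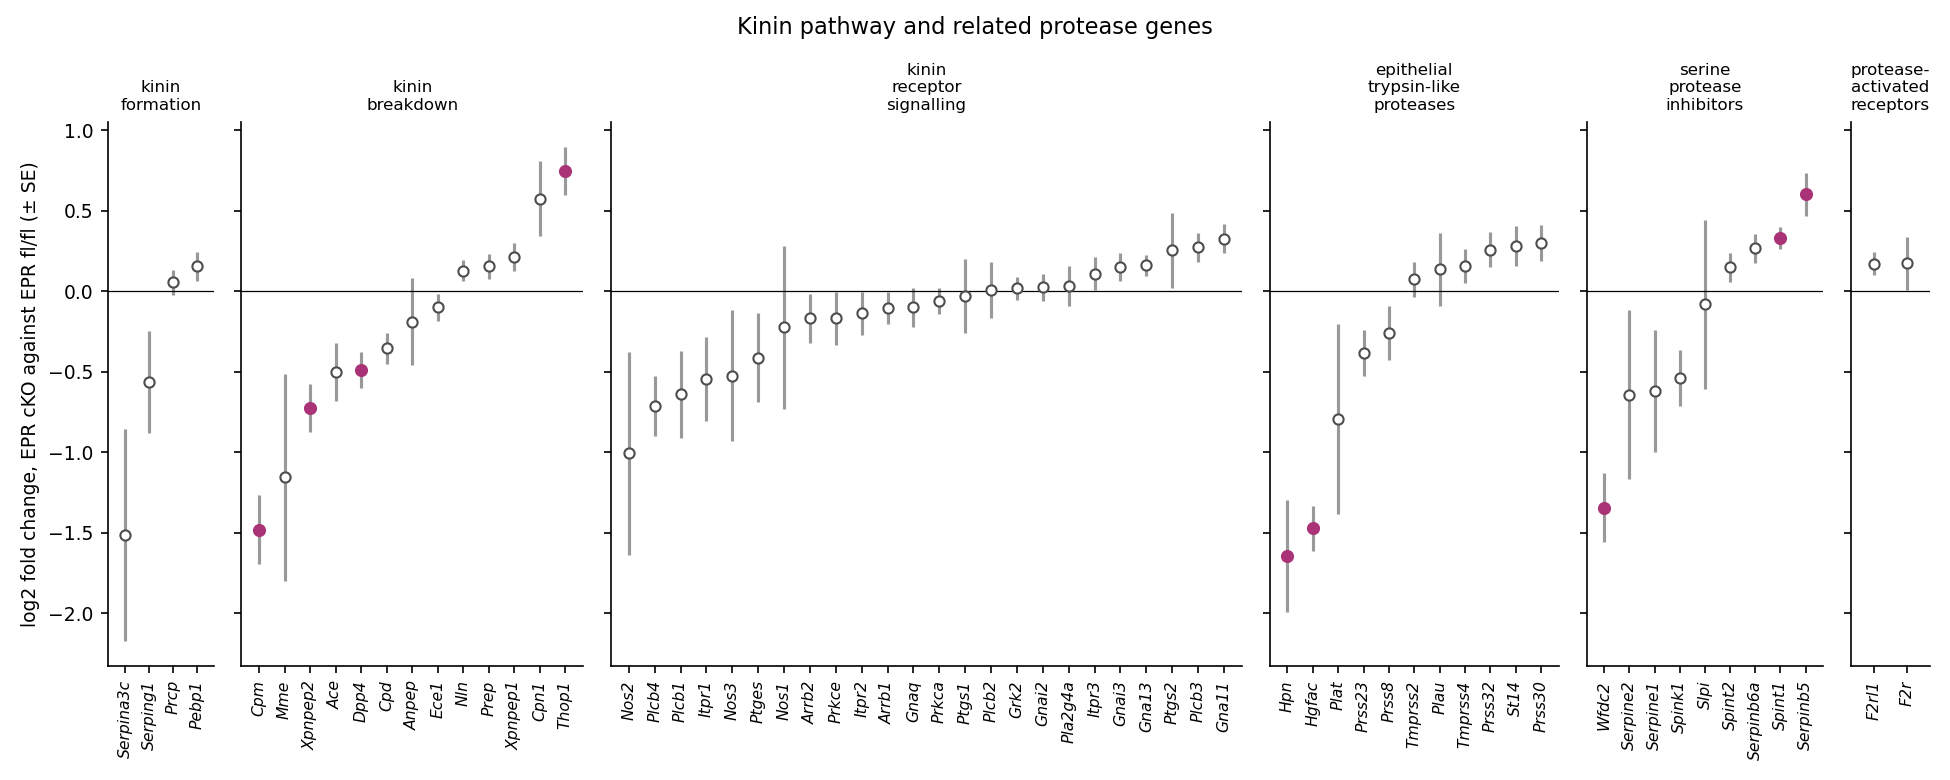
Log2 fold change (EPR cKO against EPR fl/fl, ± SE) of the 63 tested genes of the kinin pathway and related protease lists, in a panel per list, with filled points at an edgeR adjusted p under 0.05. The filled points are Cpm, Xpnpep2, Dpp4 and Thop1 (breakdown), Hpn and Hgfac (proteases), and Wfdc2, Spint1 and Serpinb5 (inhibitors), while formation, signalling and protease-activated receptors have none.

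Markers of goblet cells moved with Klk1 between the groups. The summed level of 16 goblet cell markers ranged from 13922 to 29223 CPM in the controls and from 6534 to 8985 CPM in EPR cKO, a log2 difference of -1.28 (exact permutation p = 0.00216, the smallest that 6 mice against 6 can give). From the same RNA-Seq, the study had reported several markers of this list as reduced, Muc2, Fcgbp and Clca1 among them. The direction of the sum was thus known beforehand, and its p is no independent support. No marker of this list was at 0 in all libraries. All 16 had a log2 fold change below 0, but 9 passed an adjusted p under 0.05 by edgeR and 7 did not. Over all tested genes, 1.57% were lower. Muc2, the main secreted mucin, fell from 8027 ± 3589 to 1760 ± 351 CPM (log2 fold change -2.19, edgeR adjusted p = 0.000741). Tff3, a trefoil peptide of goblet cells, fell less, from 358 ± 14.6 to 247 ± 43.5 CPM (-0.53, edgeR adjusted p = 0.0170). The goblet sum, at a mean of 19374 CPM in the controls, was led by Muc2, Fcgbp (4524 CPM) and Clca1 (3063 CPM). It therefore weighs these genes above the others. Fcgbp and Clca1 were named after their values were seen. The log2 ratio of Klk1 to Muc2 was -3.68 ± 0.47 in the controls and -3.74 ± 0.72 in EPR cKO, a difference within the spread. The ratio to Tff3 was 0.70 ± 0.22 and -0.92 ± 0.45, and the ratio to the sum of the goblet list was -5.02 ± 0.30 and -5.91 ± 0.56. The ratio to Tff3 separated the groups, while that to the goblet list overlapped, at -5.39 to -4.71 in EPR fl/fl libraries and -6.89 to -5.16 in EPR cKO libraries, with the lowest value in EPR cKO 1. These ratios were not tested. How much of the Klk1 difference goes with the number of goblet cells was not tested.

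RNA of epithelial markers as a whole was not lower. The 11 epithelium markers summed to 9632 to 14251 CPM in the controls and to 11595 to 17569 CPM in EPR cKO (log2 difference 0.32, exact permutation p = 0.0303, adjusted over 8 lists 0.0606). Relative to this sum, the log2 ratio of Klk1 was -4.38 ± 0.42 and -6.86 ± 0.35, so that the difference was as large per epithelial RNA. Smooth muscle markers differed by -0.89 (exact permutation p = 0.0952), and by -1.30 without EPR cKO 1 (exact permutation p = 0.00216). The composition score, the mean log2 CPM of the epithelium list minus that of the smooth muscle list, was 1.32 ± 0.26 in the controls and 2.46 ± 1.29 in EPR cKO (exact permutation p = 0.0671). Within EPR cKO, the library with the lowest score (EPR cKO 1, 0.10) had the lowest Klk1 and that with the highest score (EPR cKO 5, 3.58) had the highest Klk1. For the controls the score did not show this. Their library with the highest Klk1 (EPR fl/fl 3, 696 CPM) had a score of 1.09, near the lowest of its group (1.07). Klk1 and the score had r = 0.204 among control libraries, against 0.866 among EPR cKO libraries. With smooth muscle markers alone, r of Klk1 was negative for both groups, at -0.727 for controls and -0.886 for EPR cKO. The control with the lowest Klk1 (EPR fl/fl 6, 460 CPM) had the highest smooth muscle sum of its group (5869 CPM). These r values rest on 6 libraries each and were not tested. Among EPR cKO libraries, EPR cKO 1 lay apart, with a score of 0.10 against 2.07 to 3.58 in the others. Its smooth muscle sum was 10212 CPM, against 1236 to 3026 CPM. The r values were not taken without it. Without EPR cKO 1, the log2 fold change of Klk1 was -2.02, so that the difference did not rest on it. For Bdkrb2, a receptor also found on smooth muscle, the log2 ratio to the smooth muscle sum was -9.13 ± 0.74 in the controls and -7.87 ± 1.26 in EPR cKO. The ranges overlapped, at -10.09 to -8.05 and -10.11 to -6.67. Bdkrb2 itself had a log2 fold change of 0.32 ± 0.28 (SE). Its r with smooth muscle markers was -0.190 in the controls and -0.0933 in EPR cKO. The ratio was not tested.

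Other cells of the wall can also hold proteases or kinin receptors. The endothelium, macrophage and enteric neuron sums differed by log2 values of -0.46, -0.39 and -0.76 (exact permutation p = 0.119, 0.160 and 0.158), and none of the 3 passed the test. The mast cell sum, at 95.1 to 158 CPM and 48.6 to 86.7 CPM, differed by -0.75 (exact permutation p = 0.00216). Most of it was Kit, which the pacemaker cells of the gut also express, and which fell from 107 to 45.3 CPM, whereas the mast cell protease Mcpt1 was at 3.48 ± 6.09 and 14.4 ± 10.9 CPM. The pancreas list, included since pancreas is rich in Klk1, summed to 21.1 to 31.4 CPM and 25.0 to 50.3 CPM, with 2 of its 10 markers at 0 in all libraries. Most of that was Cela1, at 26.5 CPM in the controls and 40.1 CPM in EPR cKO. The other 7 detected markers had few reads, and each had fewer in EPR cKO, from 48 against 5 for Pnlip, 29 against 1 for Prss2, 38 against 10 for Cela2a, 36 against 10 for Ctrb1 and 25 against 4 for Cpa1 to 26 against 18 for Cpb1 and 10 against 5 for Cela3b. Kit, Mcpt1 and the pancreas markers were named after their values were seen. The part of these cell types in the Klk1 difference was not tested.

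**Figure D5:**
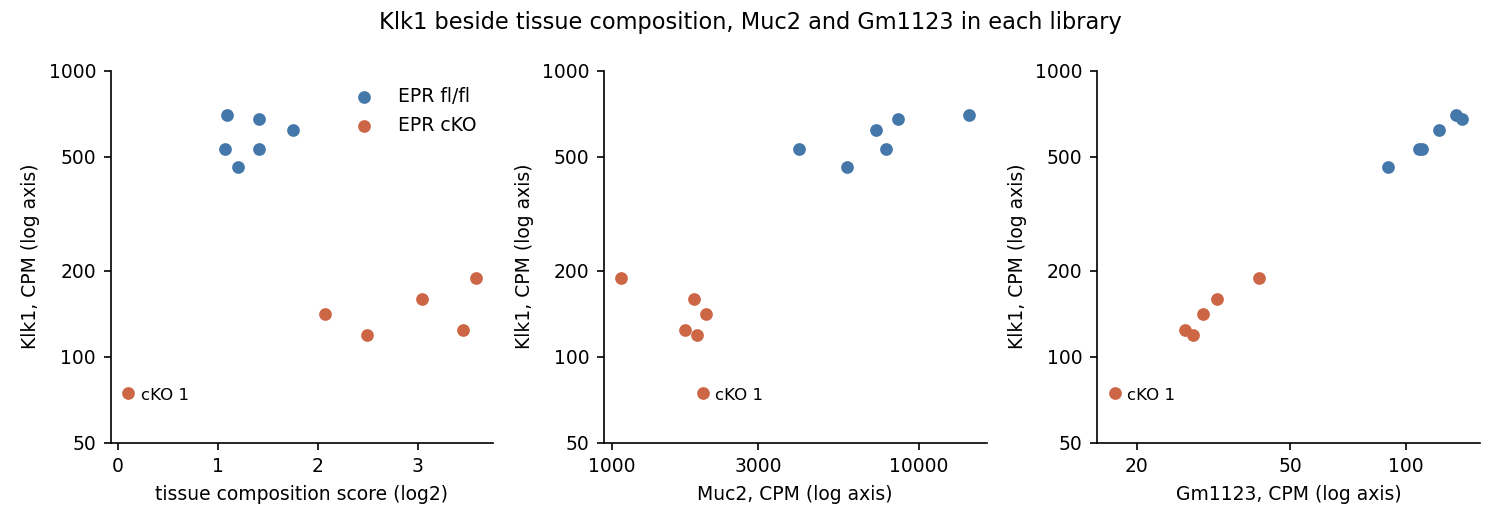
Klk1 (CPM, log axis) in each of the 12 libraries against the tissue composition score (log2, epithelium minus smooth muscle markers), Muc2 (CPM, log axis) and Gm1123 (CPM, log axis), EPR fl/fl in blue and EPR cKO in red. EPR cKO 1 has the lowest score (0.10) and the lowest Klk1 (74.4 CPM), and Klk1 and Gm1123 lie close to a single line over both groups.

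The gene with the pattern most like that of Klk1 was Gm1123, a gene model at chr9:99006790-99035715. Over the 12 libraries its log2 CPM had a Pearson r of 0.999 with that of Klk1. It was measured at 117 CPM in the controls and 29.3 CPM in EPR cKO, and its log2 fold change was -2.0 ± 0.18 (SE). It shared no 50-base stretch with Klk1 or any other gene. The ratio of Klk1 to Gm1123 was 4.83 to 5.18 in EPR fl/fl and 4.25 to 4.93 in EPR cKO. The next were Atp2c2 (r = 0.991), a calcium pump of the secretory pathway, B3gnt6 (0.989), the core 3 O-glycan synthase, Hpd (0.985), an enzyme of tyrosine breakdown, and Cgref1 (0.983). All 5 had lower means in EPR cKO (log2 fold change -2.75 to -0.96). These correlations are a description, since the difference between the groups alone makes them high.

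When the group means were taken out, Gm1123 again came first, with r = 0.985 in deviations over the 12 libraries, and 0.970 without EPR cKO 1. Next were 1810059H22Rik (0.959), Tbl1xr1 (0.953), a subunit of nuclear corepressor complexes, Slc44a3 (0.948), a choline transporter-like protein, and Trpt1 (0.947), a tRNA-processing enzyme. The log2 fold changes of these 4 between the groups lay between -0.14 and 0.02, so that they varied with Klk1 between mice with little difference between the group means. They were picked as the highest r among 15952 genes, so that high values come with the selection and are a description. Among them, 1810059H22Rik had only 8 to 63 reads a library. In the same deviations, r of the 16 goblet cell markers with Klk1 ran from -0.273 (Fcgbp) to 0.859 (B3gnt6), with 0.295 for Tff3 and 0.0152 for Muc2. It was also negative for Retnlb (-0.240) and Clca1 (-0.190). The libraries share depth and tissue makeup, which these values also carry.

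None of the 6 tested genes nearest to Klk1 was called lower by edgeR, beside 1.57% of all tested genes, so that nothing is read from 0 of 6. At higher coordinates, the nearest were 2410002F23Rik, 17.1 kb away (24.1 against 27.0 CPM, log2 fold change 0.16, edgeR adjusted p = 0.551), Clec11a, 73.1 kb away (-0.37, 0.391), and Shank1, 80.6 kb away (0.16, 0.866). At lower coordinates, beyond the untested kallikreins, they were Ctu1, 547.1 kb away (-0.06, 0.772), Ceacam18, 576.1 kb away (0.32, 0.249), and Zfp719, 632.1 kb away (-0.25, 0.139). Of the 6, 0 passed an adjusted p under 0.05 by edgeR or limma-voom, and Ceacam18 and Zfp719 had an unadjusted p under 0.05. Zfp719 was lower by DESeq2 (adjusted p = 0.04998) and, in edgeR, without EPR cKO 1 (0.0248), where 14.4% of all tested genes were lower. In size, the Klk1 change of -2.13 was well beyond these, whose log2 fold changes lay between -0.37 and 0.32. Klk1 was chosen with its change known, so this is a description.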

How the data were processed

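Per the labels and the methods of the study, the authors made strand-specific libraries from total RNA depleted of ribosomal RNA, trimmed the paired reads, mapped them to mm10 with STAR 2.5.3a and counted reads per gene with featureCounts on an Ensembl GRCm38 annotation. The deposited table held raw counts as the authors' counter gave them, and 0 count columns had no sample. Neither the strand setting nor the treatment of reads with several alignments is given in the sources used here.

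Here, genes with at least 1 CPM in at least 4 libraries were fitted in R 4.3.3 with edgeR 4.0.16 (TMM, quasi-likelihood F test, no covariate, all 12 libraries), which left 15952 of 36694 genes with any count. P-values were adjusted over all of these by Benjamini-Hochberg, and SE was taken as the size of the log2 fold change over the root of F. The study set its thresholds at an adjusted p of 0.001 and a log2 fold change of 1.25 in size. RPKM was CPM divided by the exon length in kilobases. Marker sums were compared by two-sided exact permutation tests, and a prior count of 2 entered log2 CPM of libraries. The ratio of Klk1b5 to Klk1 was taken over summed counts, since libraries with 0 Klk1b5 counts have no log2 ratio. The fit was first tested on simulated data. Shared sequence was found with 50-base stretches over GENCODE M21 transcripts, and coding sequences were aligned with Biopython 1.88.

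The members, lists and tests were chosen with earlier results of these data known. Named genes were the members, EPR, list genes past an adjusted p of 0.05, 10 fixed kinin pathway genes, the 3 nearest tested genes on each side of Klk1, the 5 most correlated with Klk1 in each of 2 measures, Muc2 and Tff3. One further gene of the kinin breakdown list is not reported here. Alternatives were DESeq2 size factors, no scaling beyond total counts, no filter, filterByExpr, DESeq2 1.42.0, limma-voom (limma 3.58.1), a replicate block, the composition score as covariate, the Klk1b counts added to Klk1, and each library left out in turn. Libraries of a group were checked for repeats, and over the 30 pairs the lowest chi-square per gene was 24.7, far above sampling noise.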

Additional observations from a re-analysis of the deposited data

Results flagged for a closer look

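In 42 sets of 6 libraries (a gene, marker sum or ratio in 1 group), 6 held a library whose gap to the nearest other, divided by the range of the set, was above the 95% critical value of Dixon's test, and chance gives about 2.1. Klk10 was at 0.319 CPM in EPR cKO 6, and the next library was at 0.10 CPM, from counts of 6 and 2 reads. Bdkrb1 was at 1.10 CPM in EPR cKO 1, and the next was at 0.451 CPM. EPR was at 0.424 CPM in EPR cKO 2, and the next was at 0.134 CPM. The smooth muscle sum was 10212 CPM in EPR cKO 1 and at most 3026 CPM in the others of this group. The enteric neuron sum was 180 CPM in EPR cKO 1 and at most 50.8 CPM in the others. The log2 ratio of Klk1 to Tff3 was -1.81 in EPR cKO 1, and the next was -0.88. Of the 6 sets, 4 had EPR cKO 1 as the library apart.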

How the results depend on the processing

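Klk1 was lower in EPR cKO in every fit, from -2.52 (composition score as covariate) to -2.12 over the alternatives with all libraries and from -2.25 to -2.02 with each library left out. Bdkrb2 ranged from 0.17 to 0.47 on leaving out a library, and the log2 of the ratio of Klk1b5 to Klk1 in EPR cKO over that in EPR fl/fl was 1.09 (0.69 to 1.36). List genes called higher, 3 with all choices kept, were 1 with total counts only, 1 with the replicate block and 0 with the composition covariate, and 0 to 10 on leaving out a library, where those called lower, 6 with all choices kept, were 3 to 19. Those lower were 4 to 8 under the other alternatives. Over all genes, 251 lower and 141 higher became 473 and 440 by DESeq2. Those higher were 39 with total counts only, 84 with the composition covariate, 67 with the replicate block and 54 with no filter. Leaving out a library gave 145 to 2273 lower and 28 to 1178 higher, the highest without EPR cKO 1. The share of calls that were higher was 36.0%, and 13.6% with total counts only, where the median gene moved by less than 0.1. The causes were not tested.

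The value of 2410002F23Rik turned to -0.067 with the composition covariate. Shank1 turned to -0.15 by limma-voom, to -0.083 with the replicate block and to -0.50 without EPR cKO 1 (-0.50 to 0.30 on leaving out a library). The epithelium sum gave 0.29 (exact permutation p = 0.0671) with total counts only, and 0.26 to 0.40 on leaving out a library. Those ranges were -1.30 to -0.69 for smooth muscle, -0.66 to -0.32 for endothelium, -1.18 to -0.54 for enteric neurons and 0.91 to 1.61 for the composition score, each past 0.05 only without EPR cKO 1.

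Replicate numbers did not pair the mice: the deviations of libraries with the same number correlated at -0.24 to 0.34, with 2 of 6 over 0.1, and 2 of 6 matched their own number best. With the replicate block, Klk1 was at -2.17 and Bdkrb2 at 0.36, 4 list genes were lower and 1 was higher, and 178 and 67 genes were called. Depth limits Klk1b5, Klk10, Klk15 and Bdkrb1, at 0 to 20 reads a library.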
